A study of Mus musculus with 3 samples.

Results

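The 9 genes Kcne2, Kcnq1, Ano1, Slc5a8, Slc26a7, Cftr, Clcn5, Lrp2 and Cdh16 encode channels, transporters and surface proteins of the thyroid follicular cell, and they were described here by all 13 of their probes on 3 mouse arrays. They were chosen by name, as ion transport and polarity genes, from 18951 genes that the arrays could be matched to, and each of the 9 had at least 1 probe. The study set fibroblast cultures given thyroid and reprogramming factors beside cultured thyroid cells, with 1 array per group. The 7-factor culture came from fibroblasts of E13.5 ICR mouse embryos. It was infected 2 times with retroviruses that carried the thyroid factors Foxe1, Pax8 and Nkx2.1 (Nkx2-1) and the reprogramming factors c-Myc, Klf4, Sox2 and Oct3/4. The 8-factor culture received Hhex in addition. Both spent 1 week in plain medium and 2 weeks in a medium with thyroid stimulating hormone (1 U/mL), potassium iodide (1 µg/mL) and N2 and B27 supplements, and were collected at 21 days. Follicular cells taken from the thyroids of adult ICR mice made up the primary culture, which spent 1 week in that medium. All 3 cultures thus had serum, iodide and thyroid stimulating hormone in common, while the embryonic origin, the viruses and the longer culture belonged to the induced pair. The labels name no clone and no sort for the infected cells, and no array of uninfected fibroblasts was analysed here.

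In the thyroid follicle, epithelial cells surround a lumen in which thyroglobulin is stored, iodinated and taken back up. Iodide enters through the basolateral side with sodium, and that uptake depends on the sodium gradient and on potassium leaving again through channels such as the one formed by Kcnq1 and Kcne2. Iodide then leaves through the apical side by anion channels and exchangers. Endocytic receptors and endosomal chloride transport serve the return of thyroglobulin, and cadherins hold the cells in an epithelial sheet.

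Levels below are log2 signals of a probe relative to the 75th percentile of all probes on its array, so that a level of 0 lies at that percentile. A difference between arrays counted as higher or lower from 2-fold. Where a probe was not well above background on 1 array, its value there was raised to the lowest signal well above background on that array, and the difference is a bound, written "at least". Without replicates no difference has a replicate check, no test was made and no p-value is given. The errors given are those of the scanner's error model for reading 1 spot; they leave out the culture and the labelling, and the number of arrays limits the precision. RNA of a whole culture was measured, so fewer cells of a type and less RNA per cell cannot be told apart.

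The scaling between arrays mattered for these genes. The 75th percentile lay at 2190 and 2535 intensity units with 7 and 8 factors but at 504 for primary cells, so scaling moved every measured difference from primary cells down by 2.12 and 2.33 on the log2 scale. The induced pair shared 1 slide and 1 scan and the primary array had its own, so against primary cells the slide and the group cannot be told apart. The label of the primary culture was borne out by the levels of its markers, with Tg, the thyroglobulin gene, at 8.89. All 11 measured thyroid genes of a marker list were well above background there, beside 9 and 8 with 7 and 8 factors. In the 7-factor and 8-factor cultures Tg lay at -2.93 and -3.85, and 0 of the 11 thyroid genes were higher than in primary cells while 11 were lower in each, 10 and 9 without scaling. The given factors Nkx2-1 (-6.38, -5.74 and 2.62), Pax8 (-6.85, -7.28 and 0.55) and Foxe1 (0.72, 1.12 and 3.21) also had lower levels in the induced cultures. Pax8 was not well above background with 8 factors. Unscaled, Nkx2-1 differed by -6.88 and -6.03 and Pax8 by -5.28 and -5.50, the last a bound. Foxe1 differed by only -0.36 and 0.25. Whether the probes of these factors lie in the part carried by the viruses is not given in the sources used here. Markers of other cells were also present on the primary array, with parathyroid hormone (Pth) at 6.13. Well above background on the 7-factor, 8-factor and primary arrays were 7, 6 and 7 of 7 leukocyte genes. For C cell and parathyroid genes it was 7 of 8 on each. These counts were thus alike, but the summed levels were not. In multiples of the 75th percentile they were 0.195, 0.19 and 60.9 for leukocyte genes and 1.37, 6.66 and 364 for C cell and parathyroid genes. The part of such cells in the results below was not tested.

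In the 7-factor culture 6 of the 9 genes were lower than in primary cells, 1 was higher and 2 differed by less than 2-fold. The lower genes were Cdh16, Cftr, Slc26a7, Slc5a8, Clcn5 and Lrp2, the higher one was Kcne2, and Kcnq1 and Ano1 differed little. The 8-factor culture gave 5 lower, 1 higher and 3 under 2-fold, since Slc5a8 there lay near its primary level. Among all genes compared, 27.1% were lower and 19.1% higher in the 7-factor culture, or 46.1% in either direction, of 16152, and 27.5% were lower and 17.8% higher in the 8-factor culture, or 45.3% in either direction, of 16161. The median difference of the 9 genes was -2.56 with 7 factors and -2.81 with 8 factors, beside 0.00 over all genes compared in each; that 0.00 falls among bounds that were set to 0. The calls of several genes rested on the scaling. Without it the split was 3 higher and 3 lower with 7 factors and 4 higher and 3 lower with 8 factors, and only Kcne2, Cdh16, Cftr and Slc26a7 kept their calls in both. Over all genes, leaving the scaling out gave 11208 higher and 1140 lower with 7 factors and 11715 higher and 978 lower with 8 factors. The medians over all genes were then 1.94 and 2.11. Unscaled counts of the gene lists below carry the same upward shift. Both comparisons used the same primary array, so their likeness is not independent.

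**Figure D1:**
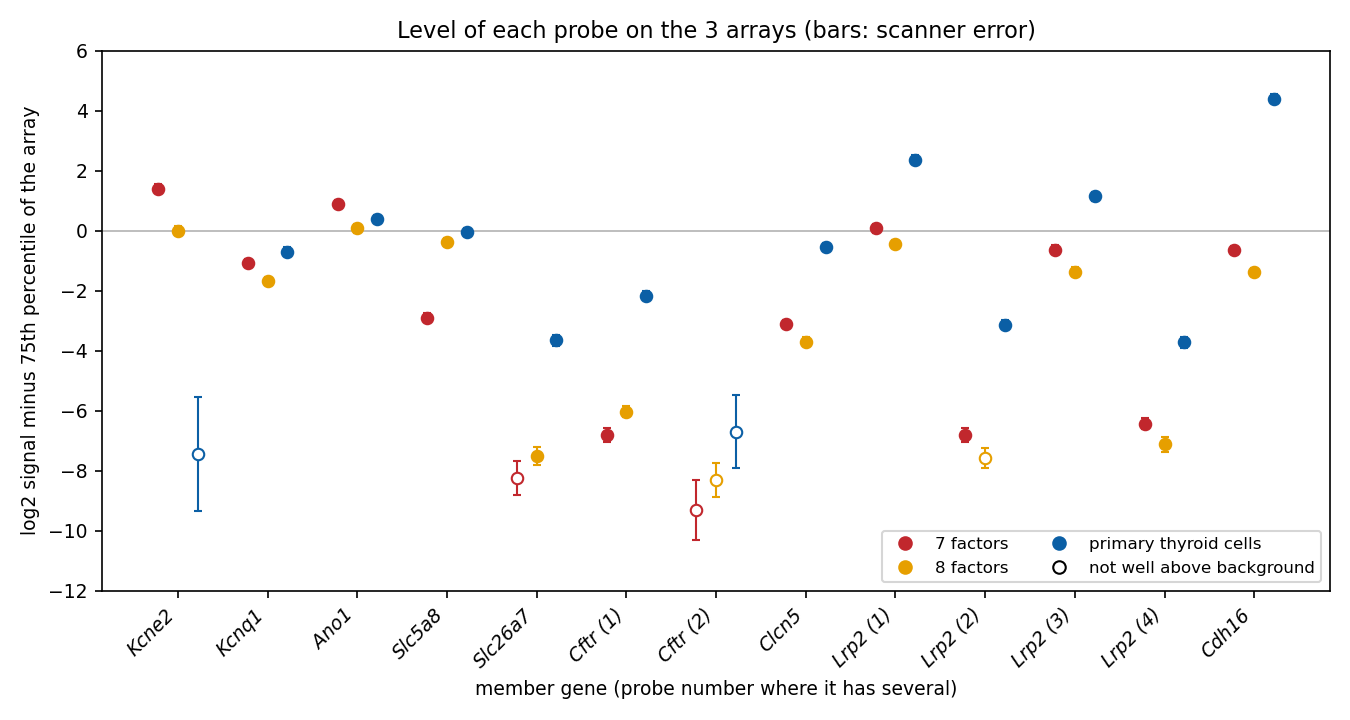
Levels of the 13 probes of the 9 genes on the 3 arrays, as log2 signal over each array's 75th percentile; each point is 1 probe on 1 array, bars are the scanner error, and hollow points were not well above background. Kcne2 runs from 1.41 and 0.00 in the induced cultures to a hollow point in primary cells, while Cdh16 runs the other way, from -0.64 and -1.38 to 4.40.

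Kcne2 encodes a small single-pass potassium channel subunit that assembles with Kcnq1 and keeps that channel open at rest; mice without it have low iodide uptake in the thyroid. Its probe gave signals of 5809 and 2532 intensity units with 7 and 8 factors and of 2.92 in primary cells. Both induced cultures were thus bright, and the primary signal was not well above background, with a scanner error of 1.90 on the log2 scale. Kcne2 was at least 94.2-fold higher in the 7-factor culture and at least 35.5-fold higher in the 8-factor culture. Over the alternatives that could give a value it stayed higher in both, with bounds between 3.41 and 8.68 on the log2 scale for 7 factors and between 2.00 and 7.48 for 8 factors. The arrays hold 1 probe for Kcne2, so no other probe can be set beside it.

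RefSeq gives 2 transcription starts of Kcne2, and the 250 bases before each are shown because Kcne2 is the 1 member that was higher in the induced cultures. The windows lie on the plus strand of GRCm38.p6 at chr16:92292139-92292388 and chr16:92295366-92295615. Capitals mark matches, on either strand, to CTCAAG, the core of Nkx2-1 sites, and to ATTAA, a core shared by homeodomain sites.
Kcne2 upstream start: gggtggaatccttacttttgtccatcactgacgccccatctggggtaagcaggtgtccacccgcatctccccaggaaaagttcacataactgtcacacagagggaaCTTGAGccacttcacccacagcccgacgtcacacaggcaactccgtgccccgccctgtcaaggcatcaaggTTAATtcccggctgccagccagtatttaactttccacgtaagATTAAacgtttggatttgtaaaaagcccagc
Kcne2 downstream start: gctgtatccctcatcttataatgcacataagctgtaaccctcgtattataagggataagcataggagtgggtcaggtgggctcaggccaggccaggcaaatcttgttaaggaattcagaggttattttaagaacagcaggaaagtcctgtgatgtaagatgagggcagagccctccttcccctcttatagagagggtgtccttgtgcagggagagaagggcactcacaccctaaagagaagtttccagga
The upstream window holds 1 CTCAAG match, on the minus strand 144 to 139 bases before the start, and 2 ATTAA matches, while the downstream window holds none. Of 32851 windows of this length before RefSeq starts, 13.33% hold CTCAAG and 24.93% hold ATTAA, so such letters are common. Neither window holds TCAAGTG, another form of NK2 sites, TGTTTAC, a forkhead form of the kind bound by Foxe1, or GCGTGAC, a part of Pax8 sites. CTCAAG and TCAAGTG share the letters TCAAG.

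Kcnq1, the pore-forming subunit with which Kcne2 assembles, behaved differently. Its levels were -1.08, -1.68 and -0.70 in the 7-factor, 8-factor and primary cultures, from signals of 1039, 792 and 309 intensity units. It differed from primary cells by -0.37 with 7 factors and by -0.98 with 8 factors, each with a scanner error of 0.20. The second value lies just inside the 2-fold limit, and it passed that limit with normexp background correction (-1.18) and with the percentile taken over probes detected on all arrays (-1.02). Without scaling Kcnq1 was higher by 1.75 and 1.36, so no direction can be given for it. The pore subunit was well above background in all 3 cultures, and its partner Kcne2 in the induced pair alone.

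The other KCNQ and KCNE genes were looked at as a list of 10, all with a probe, of which 6 could be compared. Beside Kcne2, 2 others were higher in both induced cultures. Kcne3, the subunit that likewise holds Kcnq1 open in gut and airway epithelium, had levels of 1.01, 0.91 and -1.94, a difference of 2.95 with 7 factors and 2.85 with 8 factors. Its second probe gave 3.40 and 3.12. Kcne4, an inhibitory subunit, was at least 2.44-fold higher with 7 factors and at least 2.75-fold higher with 8 factors; it was named after its values were seen. Kcne1, the subunit that slows Kcnq1 in heart and inner ear, went the other way, with levels of -4.83, -5.12 and -2.74 and differences of -2.09 and -2.38, although without scaling it differed by 0.03 and -0.05. Kcnq3 and Kcne1l were among the genes not well above background on any of the arrays. Kcnq5 was well above background on the induced arrays alone, at low levels of -5.76 and -6.20. In all, 3 of 6 were higher and 1 lower in each comparison, with medians of 0.64 and 0.73. Leaving the scaling out turned this to 5 higher and 0 lower in each, beside the upward shift of all genes without scaling.

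Kcne2 is also known from acid-secreting stomach cells and from the choroid plexus, so marker lists of those tissues were read beside it. Of 6 parietal cell markers, 6, 5 and 4 were well above background on the 7-factor, 8-factor and primary arrays, and 0 were higher in an induced culture while 4 were lower in each. Without scaling 1 was higher in each and 2 and 1 were lower. Their summed level, in multiples of the 75th percentile, was 0.11 and 0.07 in the induced cultures and 1.80 in primary cells, where the potassium channel gene Kcnj10 gave 795 of the 906 intensity units summed. The proton pump subunit Atp4a was well above background in the induced cultures alone, as Kcne2 was, with levels of -4.16, -4.70 and -7.45 and bounds of 0.99 and 0.45. The other subunit, Atp4b, had levels of -6.14, -6.62 and -4.01. The intrinsic factor gene Cblif was well above background on the 7-factor array alone, at -7.29. Of 8 choroid plexus markers 6 could be compared, and 1 was higher and 4 lower in each induced culture, or 2 higher and 3 lower without scaling. The defining genes Ttr and Otx2 were not well above background on any array. Their summed level was 2.54 and 2.57 in the induced cultures and 36.4 in primary cells. A further list, of gastric mucous cell markers, was also read. Of these 4 of 7 compared with 7 factors and 4 of 6 compared with 8 factors were higher. Among them were Tff1 by 9.60 and 8.51 and Gkn2 by at least 9.66 and 8.98. The other direction was taken by 2 in each comparison, Muc1 (-3.83 and -4.28) and Gkn3 (-1.36 and -1.79). Leaving the scaling out gave 4 higher and 1 lower in each. Their summed level was 102 and 51.7 in the induced cultures and 1.54 in primary cells, while Gkn1 was dim on the 7-factor array and not well above background on the others. Marker lists of other tissues held higher genes too. Muscle markers gave 2 higher and 3 lower in each comparison, and airway markers 2 higher in each with 4 and 5 lower. Kidney tubule markers gave 2 and 1 higher with 3 and 2 lower. The part of such cells in the Kcne2 signal was not tested.

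Of the genes for apical anion exit, Ano1 differed least. Ano1 is a calcium-activated chloride channel that also passes iodide. Its signals were 4051, 2674 and 663 intensity units and its levels 0.89, 0.08 and 0.40 in the 7-factor, 8-factor and primary cultures. The differences from primary cells were 0.49 and -0.32 with a scanner error of 0.20 each, on opposite sides of 0, and without scaling both were upward (2.61 and 2.01). None of the other 7 anoctamins with a probe was higher in either culture. The lower ones were Ano5 (-2.97, and by at least 3.58 with 8 factors) and Ano8 (-1.57 and -2.53), with 6 of 8 under 2-fold in each comparison. The scramblase Ano6 differed by 0.94 and 0.50 on its brighter probe and by -1.65 and -1.05 on its dimmer one, so its probes disagree. Without scaling 5 of 8 anoctamins were higher with 7 factors and 6 with 8 factors.

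Slc5a8, a sodium-coupled carrier of lactate and short fatty acids first proposed as an apical iodide transporter, was the member that set the induced cultures apart. Its signals were 294, 1947 and 491 intensity units and its levels -2.90, -0.38 and -0.04. The 8-factor and primary cultures were close and the 7-factor culture was low. It was 7.25-fold lower than in primary cells with 7 factors (-2.86, error 0.20) and differed by -0.34 with 8 factors (error 0.20). Between the induced cultures, which shared a slide and a scan, Slc5a8 was 5.72-fold higher with 8 factors, a difference of 2.52 with an error of 0.20. Only 0.387% of 16260 genes compared had a larger upward difference there, and over the alternatives it ranged from 1.62 to 2.73. Its distance to primary cells depended on the scaling: unscaled, it was under 2-fold lower with 7 factors (-0.74) and 3.97-fold higher with 8 factors (1.99).

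The 250 bases before the RefSeq start of Slc5a8, at chr10:88885742-88885991 on the plus strand of GRCm38.p6, are shown because this gene differed most between the cultures without and with Hhex, a homeodomain factor. Capitals mark TCAAGTG and ATTAA on either strand.
Slc5a8: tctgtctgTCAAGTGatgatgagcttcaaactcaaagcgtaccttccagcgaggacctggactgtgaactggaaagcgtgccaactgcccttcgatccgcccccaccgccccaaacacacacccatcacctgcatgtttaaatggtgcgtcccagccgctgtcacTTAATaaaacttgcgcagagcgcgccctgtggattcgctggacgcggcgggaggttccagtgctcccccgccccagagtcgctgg
TCAAGTG occurs once, 242 to 236 bases before the start, and ATTAA once, on the minus strand 85 to 81 bases before it. In the 32851 windows the share with TCAAGTG is 2.68%. RefSeq windows were found for 6 of the 9 genes, 8 windows in all, of which 1 of the Clcn5 windows also holds ATTAA, and those of Ano1, Cftr and Lrp2 hold none of the 5 letter strings searched. Kcnq1, Slc26a7 and Cdh16 had no entry. A match in these letters is a description of the sequence and not a site.

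Slc26a7, an anion exchanger whose loss causes goitre and low thyroid hormone in mice and people, was near the limit of detection in the induced cultures. Its signals were 7.21, 13.9 and 39.9 intensity units, at levels of -8.25, -7.51 and -3.66, and the first was not well above background. It was at least 17.4-fold lower with 7 factors, and 14.4-fold lower with 8 factors (-3.85, error 0.37). Without scaling the sizes were at least 4.01-fold and 2.87-fold, still lower. Between the induced cultures the bound was 0.27, with the 8-factor culture on the higher side, since the 7-factor signal was not well above background.

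Its relatives were mixed. Of 21 SLC26 and SLC5 genes with a probe 18 could be compared in each contrast with primary cells, and 11 were lower and 3 higher with 7 factors, 10 lower and 3 higher with 8 factors, with medians of -1.78 and -1.28. The sodium iodide symporter Slc5a5 had levels of -8.78, -7.11 and -3.25, and was at least 23.2-fold lower with 7 factors and 14.5-fold lower with 8 factors. Pendrin (Slc26a4), an apical chloride and iodide exchanger, differed by -4.02 and -4.41. The largest downward differences were those of Slc26a10 (-6.58 and -6.23), a gene of the family without a settled function, and of the mannose and glucose carrier Slc5a9 (-5.67 and -5.79; second probe -5.15 and -5.47). Slc26a9, a chloride channel of stomach and airway, differed by -3.54 and -3.33. The 3 higher genes, named after their values were seen, were the sulfate transporter Slc26a2 (1.56 and 2.31), the vitamin carrier Slc5a6 (2.51 and 1.93) and the choline transporter Slc5a7 (at least 1.40 and 2.68, not well above background in primary cells). Without scaling the split turned to 7 higher and 6 lower with 7 factors and 8 higher and 5 lower with 8 factors, with Slc26a10, Slc5a9 and Slc26a4 lower in both.

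Cftr, the cyclic AMP regulated chloride channel mutated in cystic fibrosis, had a probe that was spotted 10 times on each array, which gives the only repeated reading among the 9 genes. Leaving out spots marked as outliers, 9 copies on the 7-factor array ran from 15.9 over a median of 19.1 to 26.4 intensity units. On the 8-factor array 9 copies ran from 35.2 over 38.2 to 46.4, and on the primary array 10 copies ran from 105 over 112 to 117. These signals are unscaled, and other probes with repeated spots were not read beside them. The SDs of the Cftr copies were 0.25, 0.13 and 0.05 on the log2 scale. The copies are spots of 1 labelled RNA and not separate cultures. Cftr was 25.2-fold lower with 7 factors (-4.66) and 14.5-fold lower with 8 factors (-3.86), and unscaled it was 5.80-fold and 2.89-fold lower. With normexp background correction it was 8.56-fold and 7.87-fold lower. Between the induced cultures it differed by 0.79, and 92.7% of genes compared had a smaller or more downward difference. With normexp that difference was 0.12. A second Cftr probe was not well above background on any array and gives no comparison.

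**Figure D2:**
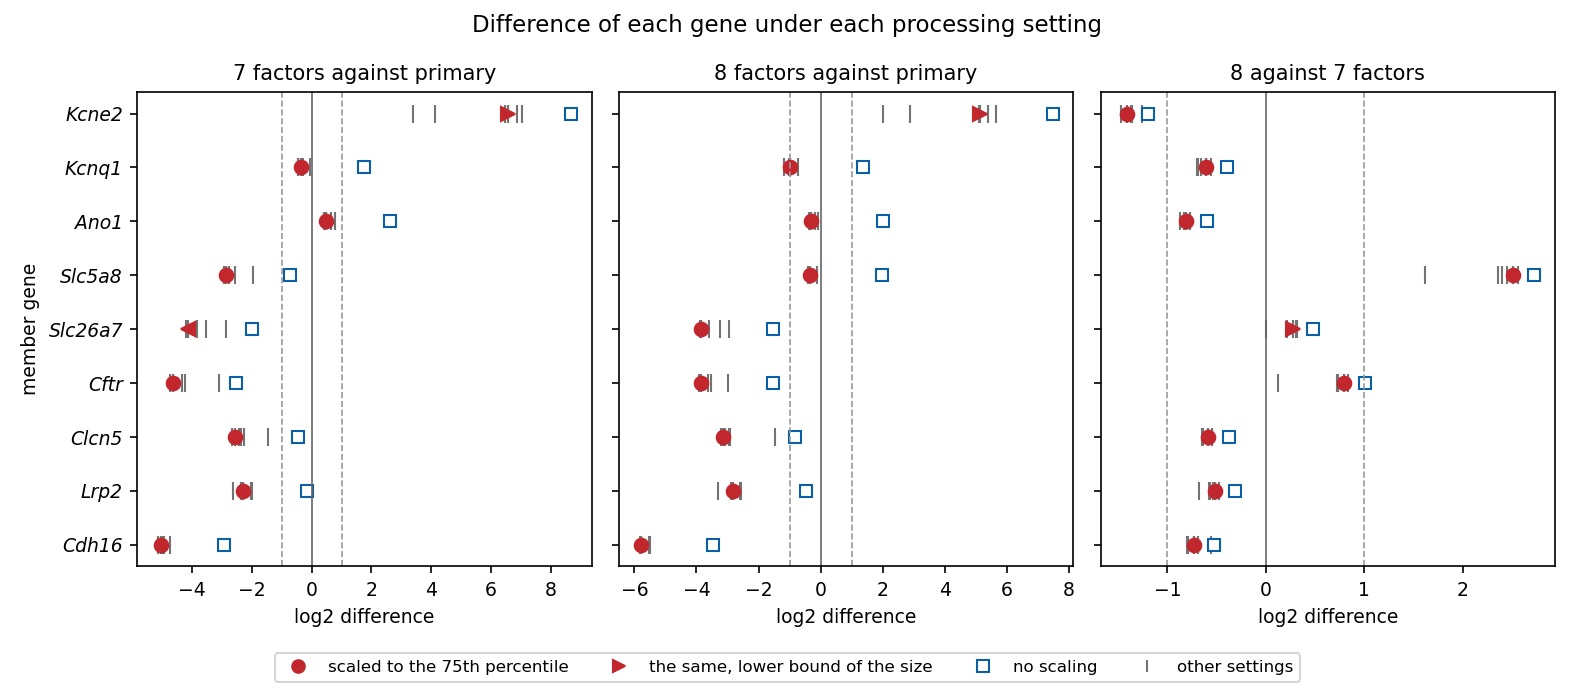
Log2 difference of each of the 9 genes in the 3 comparisons: red circles are values scaled to the 75th percentile, red triangles bounds, open blue squares values without scaling and grey ticks the other settings, and dashed lines mark 2-fold. Against primary cells, Lrp2, Clcn5, Kcnq1, Ano1 and Slc5a8 move across a dashed line or across 0 when scaling is left out. Kcne2, Cdh16, Cftr and Slc26a7 stay on their side. With 8 against 7 factors Cftr moves from 0.79 to 1.01.

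Clcn5 exchanges chloride for protons in endosomes and supports the uptake of proteins from the lumen, and mice without it can develop goitre. Its signals were 254, 195 and 345 intensity units and its levels -3.11, -3.70 and -0.55 in the 7-factor, 8-factor and primary cultures. Both induced cultures were low and close together. It was 5.91-fold lower with 7 factors (-2.56, error 0.21) and 8.89-fold lower with 8 factors (-3.15, error 0.21). Unscaled, the differences were -0.44 and -0.82, in the same direction but under 2-fold. In the CLC list, 5 of 9 genes compared were lower and 1 higher with 7 factors, and 4 lower and 1 higher with 8 factors. Lysosomal Clcn7 (-3.00 and -2.52) and barttin, Bsnd (-1.77 and -2.01), a chloride channel subunit of kidney and inner ear, were lower as well. The widely expressed Clcn2 was higher (1.84 and 1.86). Unscaled, 4 of the 9 were higher and 1 lower with 7 factors, and 5 higher and 1 lower with 8 factors.

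Lrp2 (megalin) is a very large endocytic receptor at the apical surface that binds thyroglobulin, and it had 4 probes, which allows a check within the gene. The brightest gave 2318, 1871 and 2604 intensity units, or levels of 0.08, -0.44 and 2.37. It was 4.88-fold lower with 7 factors (-2.29, error 0.20) and 7.00-fold lower with 8 factors (-2.81, error 0.20). The other 3 probes went the same way: their differences were -1.78, -2.73 and -3.68 with 7 factors and -2.51, -3.41 and -4.45 with 8 factors, the last being a bound. The dimmer 2 of the 4 probes gave 13.2 to 57.6 intensity units over the 3 arrays. The unscaled signals of the brightest probe hardly differed (-0.17 and -0.48), and those of the next brightest were 0.34 and -0.18. Unscaled, the dimmer 2 differed by -1.57 and -0.61 with 7 factors and by -2.12 (a bound) and -1.08 with 8 factors. The lower call of the brighter 2 thus rested on the scaling, and that of 1 dimmer probe held without it in both comparisons.

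The receptors and adaptors that work with Lrp2 spread in both directions. In the endocytic receptor list 12 of 13 genes with a probe could be compared, of which 4 were lower and 4 higher with 7 factors and 2 lower and 3 higher with 8 factors, with medians of 0.23 and 0.33. Cubilin (Cubn), which works with megalin in the kidney, was higher (levels -2.33, -1.41 and -4.10; differences 1.77 and 2.69). The receptor chaperone Lrpap1 differed by -0.55 and -0.34, with a second probe at 0.54 and 0.60. The adaptor Dab2 differed by 1.06 and 0.37, and the related receptor Lrp1, abundant in fibroblasts, by 1.98 and 1.83. Without scaling 9 of the 12 were higher with 7 factors and 10 with 8 factors, and 0 were lower in either.

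Cdh16 (Ksp-cadherin), an atypical cadherin largely restricted to kidney tubules and thyroid, showed the largest measured downward difference of the 9 genes. With 7 factors its order against Cftr, which lay near it, and Slc26a7, known by a bound, is open. Its signals were 1400.5, 974 and 10677 intensity units and its levels -0.64, -1.38 and 4.40. The primary culture was far above both induced cultures, which lay close together. Cdh16 was 33.1-fold lower with 7 factors (-5.05, error 0.20) and 55.1-fold lower with 8 factors (-5.78, error 0.20). Only 2.24% of genes compared had a lower value with 7 factors and 1.504% with 8 factors. Unscaled it was still lower, by -2.93 and -3.45. The signal left in the induced cultures was well above background on both arrays.

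Other cadherins and polarity genes spread in both directions. Of 18 cadherins compared, 7 were lower and 5 higher with 7 factors and 7 lower and 6 higher with 8 factors, with medians of -0.29 and 0.00. E-cadherin (Cdh1), the main cadherin of epithelia, differed by -3.47 and -2.80, Cdh4 by -4.15 and -3.86 and the muscle cadherin Cdh15 by -3.96 and -4.10. Cdh11, a cadherin of mesenchyme, was higher by 3.86 and 4.22, although its 3 probes ranged down to 0.40 and 0.31. In the apical-basal polarity list 28 of 29 genes could be compared, and 8 were lower and 3 higher with 7 factors, 8 lower and 2 higher with 8 factors. On their brightest probes the members of the Crumbs, Par and Scribble complexes were mostly under 2-fold, with 17 and 18 genes of the list in that range. Dimmer probes disagreed for some. Those of Patj gave -3.53 and -0.87 with 7 factors and -3.27 and -1.38 with 8 factors. The dimmer Pard6b probes gave -2.62 and -2.20, then -2.14 and -1.35. For Pard3 they ran from -3.30 to 1.42 with 7 factors and from -1.93 to 0.84 with 8 factors. The epithelial Crb3 (-4.95 and -4.06), the tight junction protein Tjp3 (-4.36 and -4.37), the recycling motor Myo5b (-4.47 and -5.08) and the apical syntaxin Stx3 (-4.17 and -3.43) were the lowest. The dimmer probes of Stx3 differed less, by -1.15 and -1.44 with 7 factors where measured.
Unscaled, 10 cadherins were higher in each comparison, with 4 and 3 lower, and 22 and 21 polarity genes were higher with 4 lower in each. The marker lists read beside these were less mixed. Of 8 epithelial markers 8 were lower in each induced culture (median -4.00 and -3.82), and 6 and 4 without scaling. Of 10 fibroblast markers 8 and 7 were higher and 0 lower, with 10 higher in each without scaling. The summed epithelial level was 127 and 99.4 in the induced cultures and 462 in primary cells, and the summed fibroblast level 381, 253 and 117. Their part in the Cdh16 difference was not tested.

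**Figure D3:**
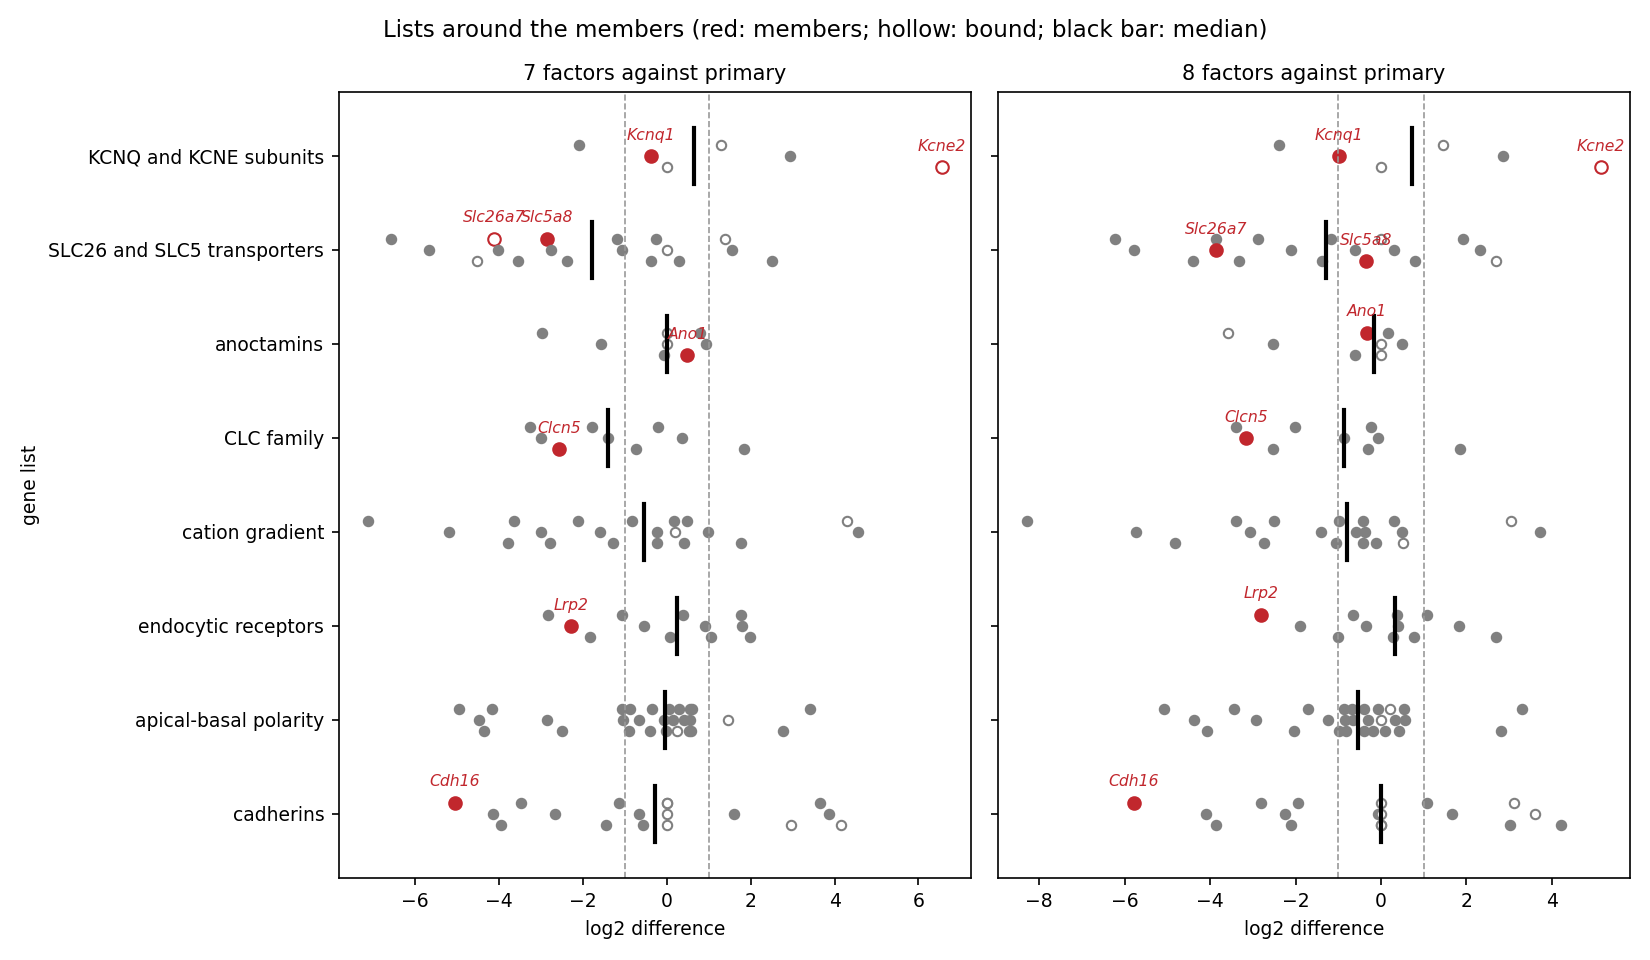
Log2 differences from primary cells for the genes of 8 lists, with 7 factors on the left and 8 factors on the right; each point is 1 gene by its brightest probe, red points are members, hollow points are bounds, black bars are list medians and dashed lines mark 2-fold. Cdh16 lies at the low end of the cadherins and Kcne2 at the high end of the potassium channel subunits.

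The genes that maintain the cation gradients used by these carriers were compared as a list of 24, of which 20 could be compared: 9 were lower and 3 higher with 7 factors and 9 lower and 2 higher with 8 factors. The sodium pump beta subunit Atp1b1 differed by -3.63 and -4.81. The pump regulators went both ways, with Fxyd4 at -7.13 and -8.29 and Fxyd6 at 4.56 and 3.72. The sodium channel subunits Scnn1a (-3.78 and -3.38) and Scnn1b (-5.19 and -5.74) were lower, while the third subunit, Scnn1g, named after its values were seen, differed by 0.40 and -0.13. Unscaled, 11 and 12 genes of this list were higher and 4 lower in each, Fxyd4, Scnn1b, Scnn1a and Atp1b1 among the lower.

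Between the induced cultures most of the 9 genes lay close together. With Hhex added, Slc5a8 was higher and Kcne2 lower, and the other 7 differed by less than 2-fold; across 16260 genes 4.54% were higher and 4.04% lower, or 8.59% in either direction. Kcne2 was 2.66-fold lower with 8 factors (-1.41, error 0.20), and 1.11% of genes had a lower value. Over the alternatives it ranged from -1.47 to -1.20. Kcne2 shared its negative sign with Ano1 (-0.81), Cdh16 (-0.73), Kcnq1 (-0.60), Clcn5 (-0.59) and Lrp2 (-0.52), each larger than the scanner error of about 0.20. The median over all genes was also negative, at -0.09, so that sign was common. Of all genes compared, 7.53% had a lower value than Ano1 and 18.7% a lower value than Lrp2. Cftr (0.79) and Slc26a7 (a bound of 0.27) lay on the other side of 0, but Cftr differed by 0.12 with normexp background correction and by 1.01, past 2-fold, without scaling. The 2 calls and these smaller differences have 1 culture each behind them, and the spread between cultures is unknown.

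**Figure D4:**
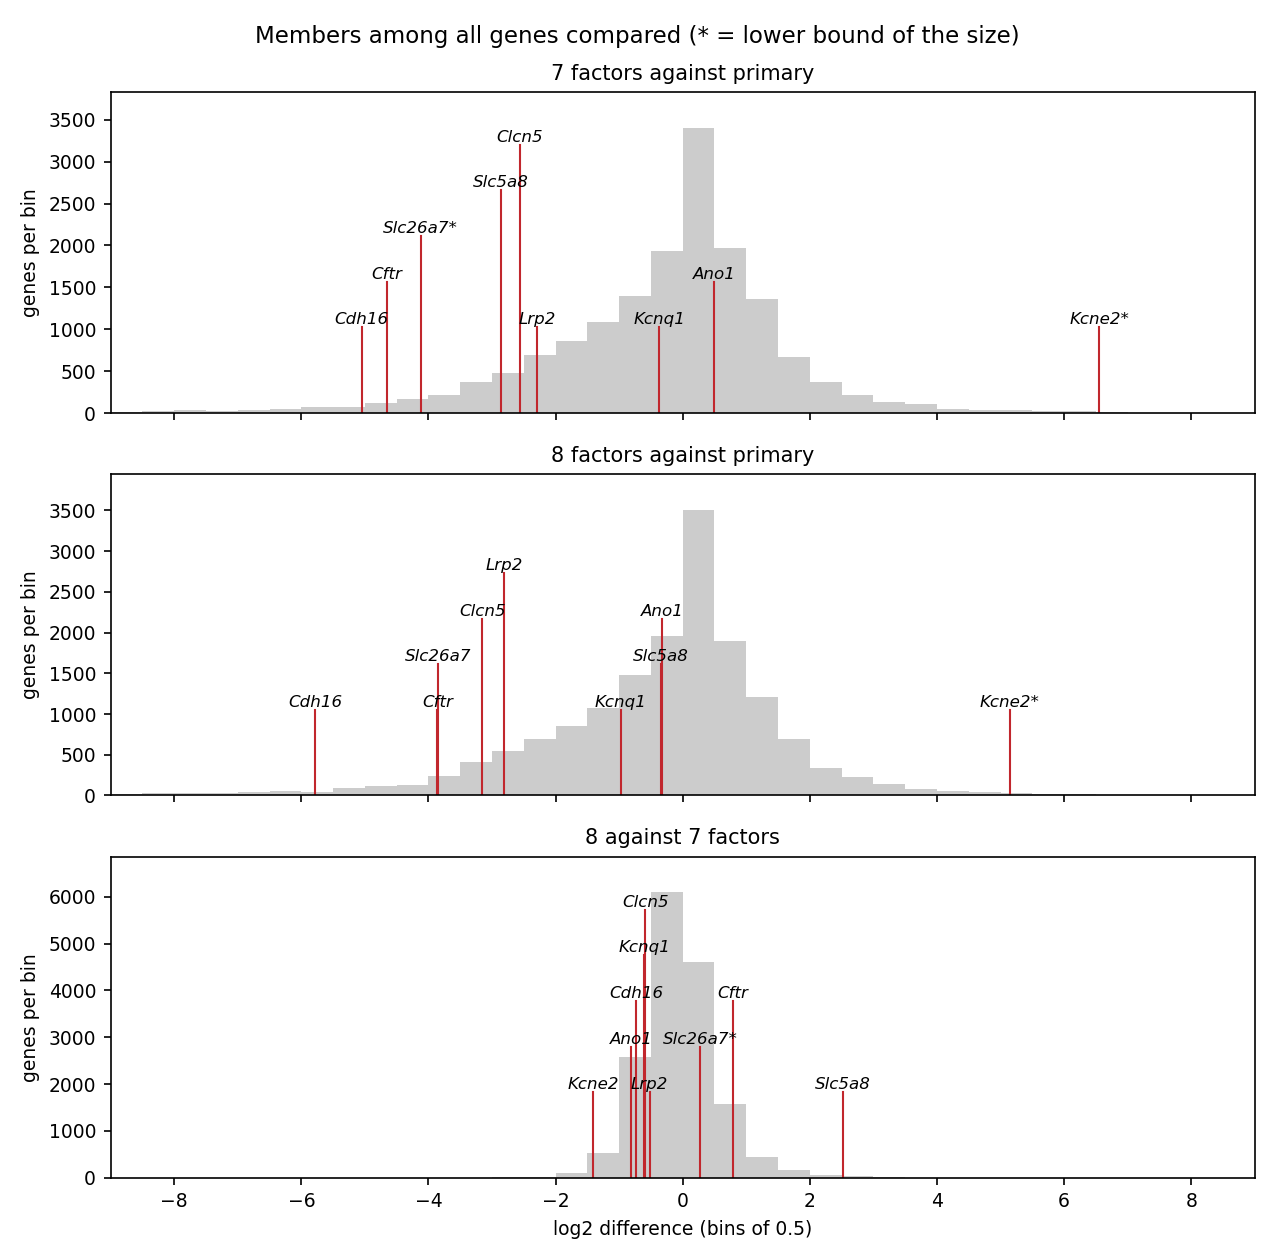
Number of genes per bin of 0.5 in log2 difference (grey), for all genes compared, with red lines at the members; the axis ends at 9 in both directions, bounds set to 0 fall in the bin above 0, and an asterisk marks a bound. In the comparisons with primary cells Cdh16, Cftr and Slc26a7 stand in the lower tail and Kcne2 in the upper, and between the induced cultures Slc5a8 stands at the upper edge.

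Differences between members do not depend on a scaling constant. With 7 factors the order from highest to lowest was Kcne2, Ano1, Kcnq1, Lrp2, Clcn5, Slc5a8, Slc26a7, Cftr and Cdh16, with Slc26a7 placed by its bound. Ano1 and Cdh16 lay 5.54 apart and Kcnq1 and Cdh16 4.68. The gaps between Lrp2 and Clcn5 (0.28) and between Clcn5 and Slc5a8 (0.30) are near the scanner error, as is that between Cftr and Cdh16 (0.39), and those neighbours cannot be ordered. The bound of Slc26a7 also leaves its place among the lowest 3 unknown. On the brightest probes and in the main setting, Ano1 and Kcnq1 thus stood above the 6 lower members by at least 1.92. That smallest gap is between Kcnq1 (-0.37) and Lrp2 (-2.29). It narrows with the next brightest Lrp2 probe (-1.78) and with normexp background correction (-0.47 and -2.04).

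For the members, the genes closest over the 3 arrays were found among 16501 genes, by Euclidean distance between levels centred on each gene's mean, with dim values at the floor. With only 3 arrays many genes lie close, and nearness says nothing of function. Closest to Kcne2 was Omd, the bone matrix protein osteomodulin, at a distance of 0.04, with levels of 1.36 and -0.02 in the induced cultures and a signal not well above background in primary cells. Closest to Slc26a7 was Cdh4 (0.02). For Cftr it was the class I gene H2-Q10 (0.05), for Lrp2 the olfactory receptor gene Olfr676 (0.01), which was not well above background on the 8-factor and primary arrays, and for Clcn5 BC049762 (0.02). Kcnq1 lay nearest to Serpinf1 (0.01) and Ano1 to Pfdn1 (0.02). The nearest gene to Slc5a8, Amy2a4 (0.22), was well above background on the 8-factor array alone, so its match rests on floors.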

How the data were processed

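RNA of 3 mouse cultures was read on 1-colour Agilent arrays, 1 per group. The deposited intensity values are processed, background-subtracted signals from Feature Extraction 11.5.1.1, per the file headers, while the submitters' processing notes name version 10.5. Control spots and outlier spots were left out, spots of a probe were averaged, and the log2 of the deposited intensity was set relative to the 75th percentile of each array; the deposited value table holds the same signals without that shift. Of 41171 probes, 27815 (67.6%) were named through RefSeq accessions (GRCm38.p6, names only), giving 18951 genes, each represented by its brightest probe. Higher and lower mean at least 2-fold. Tests, p-values and intervals were not possible with 1 array per group. Genes outside the 9 were named by size of difference within lists, or always for 8 partner genes; some genes so chosen are not reported here. The members and lists were chosen with earlier results of these data known. The call rule was tested on simulated data for genes well above background on both arrays compared. The bound rule was not part of that test. Alternatives were other scalings, none, normexp (limma), a raised floor, other probe rules and 4-fold.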

Additional observations from a re-analysis of the deposited data

How the results depend on the processing

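With the 10 alternatives, none of the higher or lower calls among the 9 genes turned to the opposite direction, though some fell under 2-fold. The 4-fold limit, the deposited values and leaving out bounds could not turn a call. Kcnq1, under 2-fold with 8 factors as reported, was lower under 2 alternatives and higher under 1. Without scaling, the 7-factor comparison with primary cells gave 3 higher and 3 lower genes and the 8-factor comparison 4 higher and 3 lower. The comparison of the induced cultures then gave 2 higher and 1 lower. Over all genes, the 8-factor comparison gave 11715 higher and 978 lower without scaling, and that of the induced cultures 1200 and 339. Raising the floor to 25% of the 75th percentile signal left 3 lower with 8 factors, beside 2213 lower over all genes. Counting only probes well above background on both arrays left 0 higher with 7 factors and 0 with 8 factors. Over all genes it left 2680 and 2473 higher. At 4-fold, 0 of the 9 genes were lower with 8 factors than with 7, beside 39 over all genes. Slc26a7 gave a difference from primary cells in 8 of the 10 with 7 factors, and Kcne2 and Cftr in 9. No test was run, so none of these counts has a p-value. Over all genes, the 7-factor comparison gave 11208 higher and 1140 lower without scaling, against 3078 and 4371 as reported; 2330 and 2158 with the raised floor; 1049 and 2420 at 4-fold; and 4218 and 3694 with median scaling. No paired analysis was possible because each group has 1 array; leaving out a replicate and a slide block could not be fitted for the same reason.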
